A study of Mus musculus with 2 samples.

Results

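The TNF superfamily genes examined were 39 genes, 23 for receptors and 16 for ligands, of 21482 protein-coding genes that had a usable transcription start site (TSS) on mm10. They were chosen by name, as members of the 2 families, with earlier results of these data known, and not every family gene was included. A MEF2A peak counted for a gene when its summit lay within 10 kb of the TSS or in the gene. The peaks came from chromatin immunoprecipitation with a MEF2A antibody and sequencing (ChIP-seq) in CH12.LX, an immortalized B-cell lymphoma line from a female mouse of strain B10.H-2aH-4bp/Wts. The 2 biological replicates came from separate biosamples and form 1 group, with no treatment and no second condition, so peaks were compared between genes and between replicates and no test across conditions could be made. The authors' optimal set, thresholded by irreproducible discovery rate (IDR), a measure of how far ranks repeat between lists, numbered 31497 peaks on mm10, and a separate list on mm9 numbered 16839. The mm10 lists name a control and the mm9 list names none, so counts from the 2 builds differ in more than the build.

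TNF superfamily ligands are trimeric proteins on the cell surface or in solution, and they bind receptors whose cytoplasmic tails recruit TRAF adaptors or, in the death receptors, death domain adaptors. TRAF signalling leads to NF-kB, through the classical path or through the alternative path that the kinase NIK (Map3k14) starts. In B cells the receptors for BAFF and APRIL and the receptor CD40 are known for their part in survival, germinal centre responses and antibody class switching. MEF2A belongs to the MADS-box family of DNA-binding proteins, and the short AT-rich sequence it recognises is called the MEF2 element.

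Sequence was read at the summits of the mm9 list from the NCBIM37 genome. The windows below are shown because they hold a MEF2 element or the looser pattern CTANNNNTAG, or belong to the members with the highest mm9 ranks. All are on the plus strand and run 50 bp to either side of the summit, but the Tnfrsf13b promoter and Tnfrsf9 windows stop where an annotated UTR begins. Capitals mark matches to a MEF2 element (Tnfrsf13b promoter), its symmetric form CTANNNNTAG (Tnfrsf13b intron, Tnfrsf9 and Tnfsf10), the octamer ATTTGCAT (Tnfrsf13b intron, minus strand), the AP-1 element TGANTCA (Tnfrsf8), an NF-kB element (Tnfrsf8 and Tnfsf10) or the ETS-IRF composite GGAANNGAAA (Tnfrsf13c). The Tnfrsf8 window and the 3 windows with the symmetric form were added after their matches were seen. Those 3 matches to the symmetric form have a G or C among the free middle bases, so none also fits the MEF2 element.
Tnfrsf13b promoter, chr11:60940191-60940256: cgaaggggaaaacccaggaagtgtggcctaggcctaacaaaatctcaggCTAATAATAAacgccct
Tnfrsf13b intron, chr11:60955846-60955946: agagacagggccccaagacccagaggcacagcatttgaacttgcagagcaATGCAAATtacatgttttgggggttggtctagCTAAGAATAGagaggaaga
Tnfrsf9 upstream, chr4:150288620-150288670: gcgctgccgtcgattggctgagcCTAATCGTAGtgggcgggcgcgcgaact
Tnfrsf8 promoter, chr4:144905139-144905239: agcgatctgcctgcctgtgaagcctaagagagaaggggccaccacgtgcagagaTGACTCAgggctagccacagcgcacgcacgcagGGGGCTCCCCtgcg
Tnfrsf13c distal, chr15:82049407-82049507: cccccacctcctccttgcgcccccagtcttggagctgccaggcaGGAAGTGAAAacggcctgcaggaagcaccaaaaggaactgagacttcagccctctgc
Tnfrsf11a intron, chr1:107698048-107698148: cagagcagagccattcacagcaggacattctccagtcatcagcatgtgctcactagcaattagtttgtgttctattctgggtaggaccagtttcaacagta
Tnfsf8 distal, chr4:63531907-63532007: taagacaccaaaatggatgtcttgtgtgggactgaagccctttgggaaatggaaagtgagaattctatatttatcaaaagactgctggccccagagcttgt
Tnf and Lta distal, chr17:35347239-35347339: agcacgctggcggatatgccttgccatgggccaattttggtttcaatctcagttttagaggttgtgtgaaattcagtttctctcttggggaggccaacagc
Tnfsf10 intron, chr3:27225667-27225767: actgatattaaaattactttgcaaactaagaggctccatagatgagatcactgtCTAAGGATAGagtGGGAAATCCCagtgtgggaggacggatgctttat

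The 2 strongest receptor peaks lay at Tnfrsf13b, which encodes TACI, a receptor for BAFF and APRIL on B cells. Tnfrsf13b had 12 peaks in the optimal set, the most of any member. The strongest (chr11:61126642-61126800, mm10) had a signal of 244 and ranked 336 of 31497. Signal is the authors' value per peak on a scale of its own in each call, so it serves here to rank peaks within a list. The same place had a signal of 90.3 and rank 393 in replicate 1 and a signal of 153 and rank 316 in replicate 2. Its summit lay inside the gene, 469 bp from the outermost RefSeq TSS. On mm9, where every transcript start was used, the promoter peak ranked 273 of 16839 and its summit was 16 bp upstream of a Tnfrsf13b TSS. This promoter held the only MEF2 element among the members' mm9 summit windows, CTAATAATAA at chr11:60940240-60940249, centred 3 bp from the summit and outside the annotated UTR. The RefSeq promoter sequence of GRCm38.p6 held the same bases at chr11:61126738-61126747, 9 bp from the summit of the mm10 peak.

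A second Tnfrsf13b peak lay 3139 bp upstream (chr11:61123013-61123198) with a signal of 208 and rank 506. It ranked 203 in replicate 1 and 1114 in replicate 2. An intronic peak 16111 bp from the outermost RefSeq TSS (chr11:61142214-61142573) had a signal of 125 and rank 1696, and it ranked 1911 in replicate 1 and 1693 in replicate 2. On mm9, where every transcript start was used, the peak of the Tnfrsf13b intron window shown above lay 1559 bp from a start. These 3 optimal peaks of Tnfrsf13b stood high in both replicates. The other 9 Tnfrsf13b peaks had signals from 16.4 to 69.2. The lowest of them, 2211 bp upstream, ranked 28973 in the optimal set, but 284441 in replicate 1 and 49209 in replicate 2.

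Genes for the other B cell receptors of this group had fewer or weaker peaks. Tnfrsf13c encodes the BAFF receptor BAFF-R, and 8 peaks lay around it. Its strongest (chr15:82218852-82219211) was 5348 bp downstream of the TSS, beyond the gene end, with a signal of 143 and rank 1297. That peak ranked 764 in replicate 1, with a signal of 68.9, and 1945 in replicate 2, with a signal of 75.03. The Tnfrsf13c promoter itself carried a weak peak, 216 bp upstream, with a signal of 14.3. So the strong peak of this gene lay away from its promoter, where the mm9 window shown above has the ETS-IRF composite 2 bp from the summit. Tnfrsf17, which encodes BCMA, the receptor of plasma cells, had 3 peaks with signals of 11.3, 33.1 and 45.6. The strongest and the weakest lay beside the TSS of its neighbour Snx29, the weakest 112 bp inside that gene. In its promoter sequence, Tnfrsf17 held a MEF2 element that also fits the symmetric form, CTATAAATAG (chr16:11313694-11313703, mm10), and the nearest optimal summit was 1652 bp from it.

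Cd40, the receptor through which T cells help B cells, had 2 peaks of like strength on both sides of its TSS. One (chr2:165056374-165056733) was 940 bp downstream with a signal of 65.9 and rank 5548, and the other was 396 bp upstream with a signal of 61.8 and rank 6173. The downstream peak ranked 4933 in replicate 1 and 6856 in replicate 2, and the upstream peak 12111 in replicate 1 and 4351 in replicate 2. The order of these peaks thus differed between the replicates. Cd27, whose product binds the ligand that Cd70 encodes, had 1 peak of signal 18.8, 23 bp from the TSS of Tapbpl. The conservative IDR set did not hold this peak.

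Several receptor genes better known from T cells or myeloid cells carried strong peaks. Tnfrsf8 encodes CD30, a marker of activated lymphocytes and of some lymphomas, and it had 8 peaks. The strongest (chr4:145315114-145315473) was at the promoter, 130 bp upstream, with a signal of 113 and rank 2034, and it ranked 2857 in replicate 1 and 1933 in replicate 2. An AP-1 element, TGACTCA on the plus strand, was centred 7 bp from the summit of the mm9 promoter peak, and an NF-kB element 41 bp from it. A Tnfrsf8 intronic peak 14692 bp from the TSS had a signal of 67.2 and rank 5355, but ranked 23950 in replicate 1 against 3094 in replicate 2. Tnfrsf1b encodes TNFR2, the TNF receptor without a death domain, and its strongest peak was 7702 bp upstream (chr4:145254392-145254751) with a signal of 100.3 and rank 2601. This peak ranked 4560 in replicate 1 and 2049 in replicate 2.

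Tnfrsf11a and Tnfrsf19 each had a single peak, deep in the gene. Tnfrsf11a encodes RANK, the receptor needed for osteoclast formation, and its peak (chr1:105801334-105801693) lay 20841 bp from the TSS with a signal of 121 and rank 1802. It ranked 2047 in replicate 1 and 1870 in replicate 2. Tnfrsf19, which encodes the receptor TROY, had its peak 58320 bp from the TSS (chr14:60988355-60988714) with a signal of 115 and rank 1992. That peak ranked 2509 in replicate 1 and 1775 in replicate 2. On mm9, with every transcript start used, the Tnfrsf19 peak lay 12624 bp upstream of a start. Neither gene had a peak within 10 kb of its TSS, and both dropped out when the gene body was left out.

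The neighbours Tnfrsf4 and Tnfrsf18, which encode the costimulatory receptors OX40 and GITR, had 3 and 4 peaks and shared 1 of them. The strongest Tnfrsf18 peak (chr4:156031949-156032308) was 5807 bp from its TSS, beyond the gene end, with a signal of 79.9 and rank 3901. It ranked 3547 in replicate 1 and 4260 in replicate 2. The strongest Tnfrsf4 peak had a signal of 61.0 and rank 6315, and its summit was inside Sdf4. Tnfrsf9, which encodes the costimulatory receptor 4-1BB, had 2 peaks of signal 47.2 and 43.5. The summit of the mm9 window shown above lies 1 bp from a GENCODE start of Tnfrsf9. On mm10, where only the outermost RefSeq TSS was used, no optimal summit lay in the outer RefSeq promoter. The mm9 window was not matched to either mm10 peak, as coordinates were not converted. The weaker mm10 peak was 5606 bp upstream of the RefSeq TSS, with Park7 as the nearest RefSeq TSS. The stronger was 7807 bp from the outermost TSS, at an inner Tnfrsf9 promoter of the RefSeq table that held overlapping NF-kB elements 1 bp or less from the summit and an AP-1 element 25 bp from it. Tnfrsf12a, the receptor of TWEAK, had 1 peak of signal 32.4 inside Thoc6, 98 bp from the TSS of Hcfc1r1.

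Death domain receptors formed the emptiest group. Of the 7 genes whose products carry a death domain, 1 was counted with a peak (14.3%; Wilson interval at 95%, from 2.57 to 51.3), against 13 of the 16 other receptors (81.3%, 57.0 to 93.4). Of the protein-coding genes other than the 39 members, 50.1% had a peak by this rule. Without replicate 2, and likewise with a 50 kb window, 3 of the 7 had a peak, where other genes stood at 51.1% and 68.5%. This split was made after the values were seen and was not tested. Fas, the classical death receptor, was the 1 gene with peaks, and its strongest lay 103 bp upstream with a signal of 55.3 and rank 7469. It ranked 7959 in replicate 1 and 7651 in replicate 2. Tnfrsf1a, Tnfrsf10b, Tnfrsf21, Tnfrsf25, Ngfr and Edar had none. These encode TNFR1, the TRAIL receptor, DR6, DR3, the p75 neurotrophin receptor and the ectodysplasin receptor. Tnfrsf11b (osteoprotegerin, a soluble decoy), Tnfrsf14 (HVEM) and Ltbr (the lymphotoxin beta receptor) also had none. The nearest optimal peak to these 9 TSSs ranged from 13114 bp away for Tnfrsf14 to 228904 bp for Edar. In the relaxed list of replicate 1, an interval within the first 31497 lay at Tnfrsf14, Tnfrsf1a and Tnfrsf25, whereas replicate 2 had none at that rank for these 9 genes. The best interval at Tnfrsf1a, for example, ranked 25913 in replicate 1 and 112627 in replicate 2.

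Among the ligands, Tnfsf8, which encodes the CD30 ligand, had the most peaks and the highest rank. Of its 11 peaks, the strongest (chr4:63870839-63870981) lay 9406 bp upstream with a signal of 188 and rank 704. It ranked 1240 in replicate 1, with a signal of 54.7, and 488 in replicate 2, with a signal of 133. An intronic peak 19100 bp from the TSS had a signal of 180 and rank 780, and it ranked 665 in replicate 1 and 865 in replicate 2. At the Tnfsf8 TSS itself, 51 bp downstream, the peak had a signal of only 27.9. Receptor and ligand of the CD30 pair thus both had peaks in the strongest 10%, at the promoter for Tnfrsf8 and away from it for Tnfsf8. Some of the weaker Tnfsf8 peaks ranked apart in the replicates, and others did not. The 1 that lay 7429 bp upstream ranked 74238 in replicate 1 and 6656 in replicate 2, and the 1 that lay 14196 bp downstream ranked 141921 in replicate 1 and 17503 in replicate 2. By contrast, the 1 that lay 17383 bp downstream ranked 22733 in replicate 1 and 29191 in replicate 2.

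The adjacent gene Tnfsf15, which encodes the ligand TL1A, had 5 peaks. Its strongest (chr4:63748177-63748536) was 3298 bp upstream with a signal of 87.8 and rank 3322, and it ranked 2557 in replicate 1 and 4065 in replicate 2. Between the genes lay more peaks that the 10 kb rule gives to neither, the strongest (chr4:63772640-63772748) with a signal of 172 and rank 865. The stretch from Tnfsf15 to Tnfsf8, with 10 kb on both sides, held 23 optimal peaks, 9 of them in the strongest 20% of the set. Every other stretch of neighbouring members examined held fewer peaks of that strength. Counted the same way, the 129.9 kb from Cd27 to Tnfrsf1a held 3 peaks, with 0 in the strongest 20%. The 393 kb from Tnfsf4 to Fasl held 16, with 3 in the strongest 20%. Peak density elsewhere in the genome was not counted.

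Tnfsf9 and Cd70 lie side by side on chromosome 17 and encode the ligands of 4-1BB and CD27. The strongest Tnfsf9 peak (chr17:57113044-57113177) was 7845 bp from the TSS, beyond the gene end, with a signal of 171 and rank 877. It ranked 1560 in replicate 1 and 589 in replicate 2. The mm9 list held no peak at Tnfsf9, although this peak stood in the strongest 10% on mm10; the mm9 list was made without a named control, and what that did here was not tested. Cd70 had its strongest peak 9845 bp from the TSS (chr17:57139752-57140111), with a signal of 103 and rank 2453, and it ranked 2090 in replicate 1 and 3111 in replicate 2. A second Cd70 peak sat at the promoter, 54 bp from the TSS, with a signal of 74.5. In the 38.2 kb between the genes were 11 optimal peaks, 6 of them in the strongest 20%. Of these 11, 8 lay beyond 10 kb of both TSSs and were not counted for either gene, the strongest with a signal of 156. Tnfsf14, which encodes LIGHT, is the next member on that stretch and had 1 peak, 120 bp upstream, of signal 36.5.

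**Figure D1:**
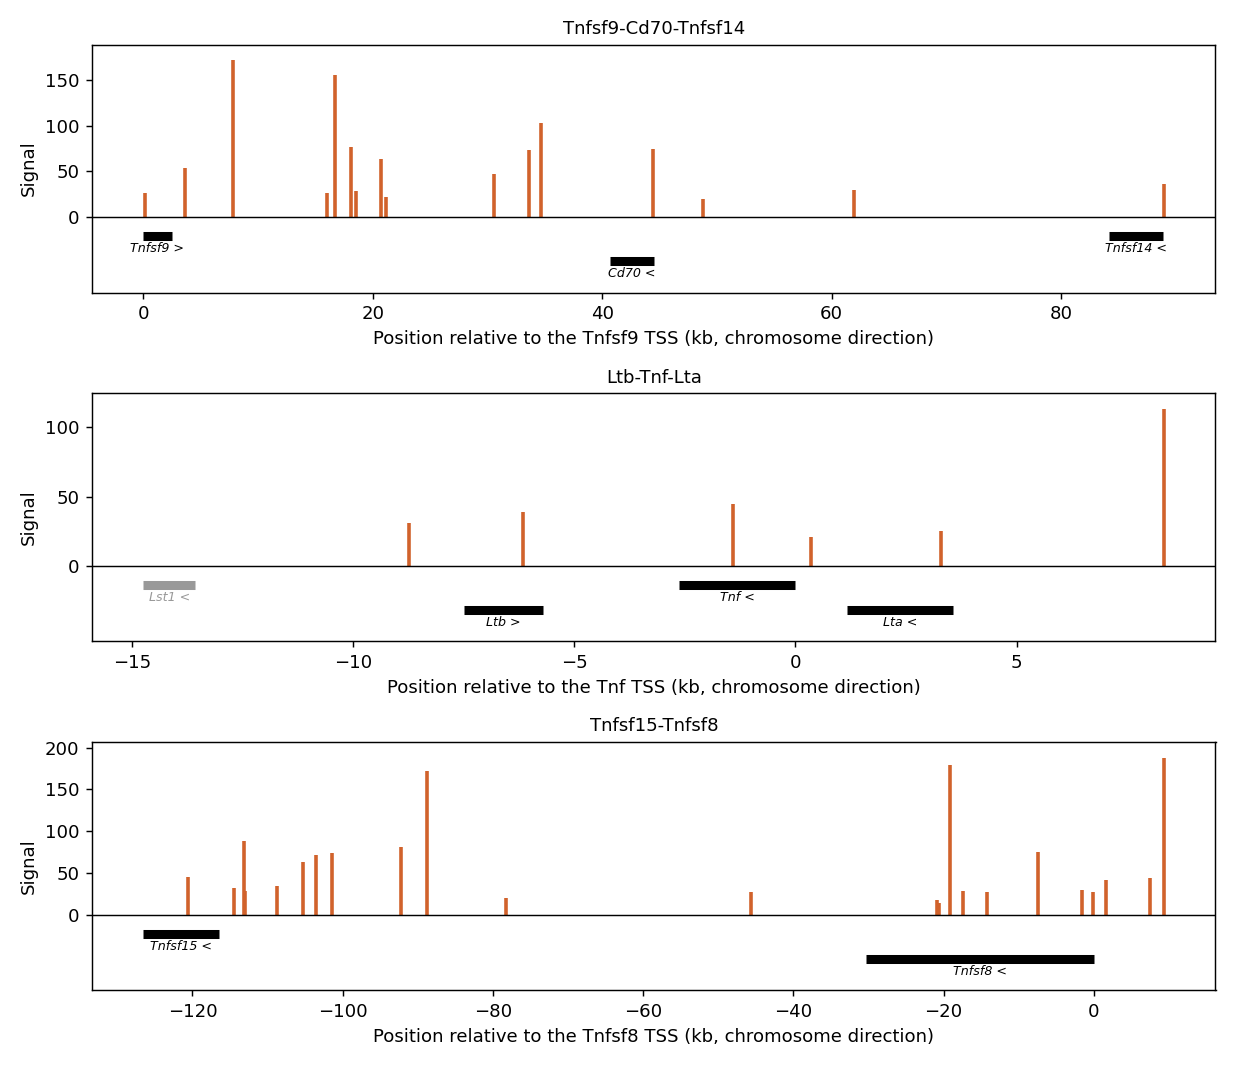
Optimal MEF2A peaks at 3 groups of neighbouring ligand genes on mm10, with position in kb from a named TSS on the x axis and peak signal on the y axis. Black bars are members and grey bars other genes, with the arrow giving the strand; the strongest peaks, of signal 171 at Tnfsf9, 113 at Lta and 188 at Tnfsf8, lay away from the promoters.

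Tnf, Lta and Ltb, the genes for TNF and the lymphotoxins, stand within 11.1 kb and shared most of their peaks. Each of the 6 peaks at this locus counted for at least 2 of the genes. The strongest (chr17:35210169-35210528) was 4771 bp upstream of Lta and 8342 bp upstream of Tnf, with a signal of 113 and rank 2056. It ranked 2677 in replicate 1 and 2003 in replicate 2. The Tnf promoter peak, 361 bp upstream, was weak, with a signal of 20.9, and ranked 135385 in replicate 1 against 18761 in replicate 2. Within Ltb, 1348 bp from its TSS, a peak had a signal of 38.8.

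Peaks at the remaining ligands were of middle or low rank. The peak counted for Tnfsf13, which encodes APRIL (chr11:69681810-69682169), had a signal of 63.3 and rank 5930. It ranked 3421 in replicate 1 and 10513 in replicate 2, and its summit was inside Senp3, 94 bp from the Senp3 TSS. Tnfsf13b, which encodes BAFF, had 1 weak peak, 396 bp from its TSS, of signal 19.0 and rank 28292. Both B cell ligands therefore stood well below the receptors Tnfrsf13b and Tnfrsf13c in rank. Tnfsf10, which encodes TRAIL, had 1 intronic peak of signal 48.4, where the mm9 window shown above holds the symmetric form 8 bp from the summit and an NF-kB element 21 bp from it. Tnfsf18, the GITR ligand gene, had 2 peaks of signal 48.1 and 25.2. The genes for OX40 ligand (Tnfsf4), RANK ligand (Tnfsf11), TWEAK (Tnfsf12) and FAS ligand (Fasl) had no peak.

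**Figure D2:**
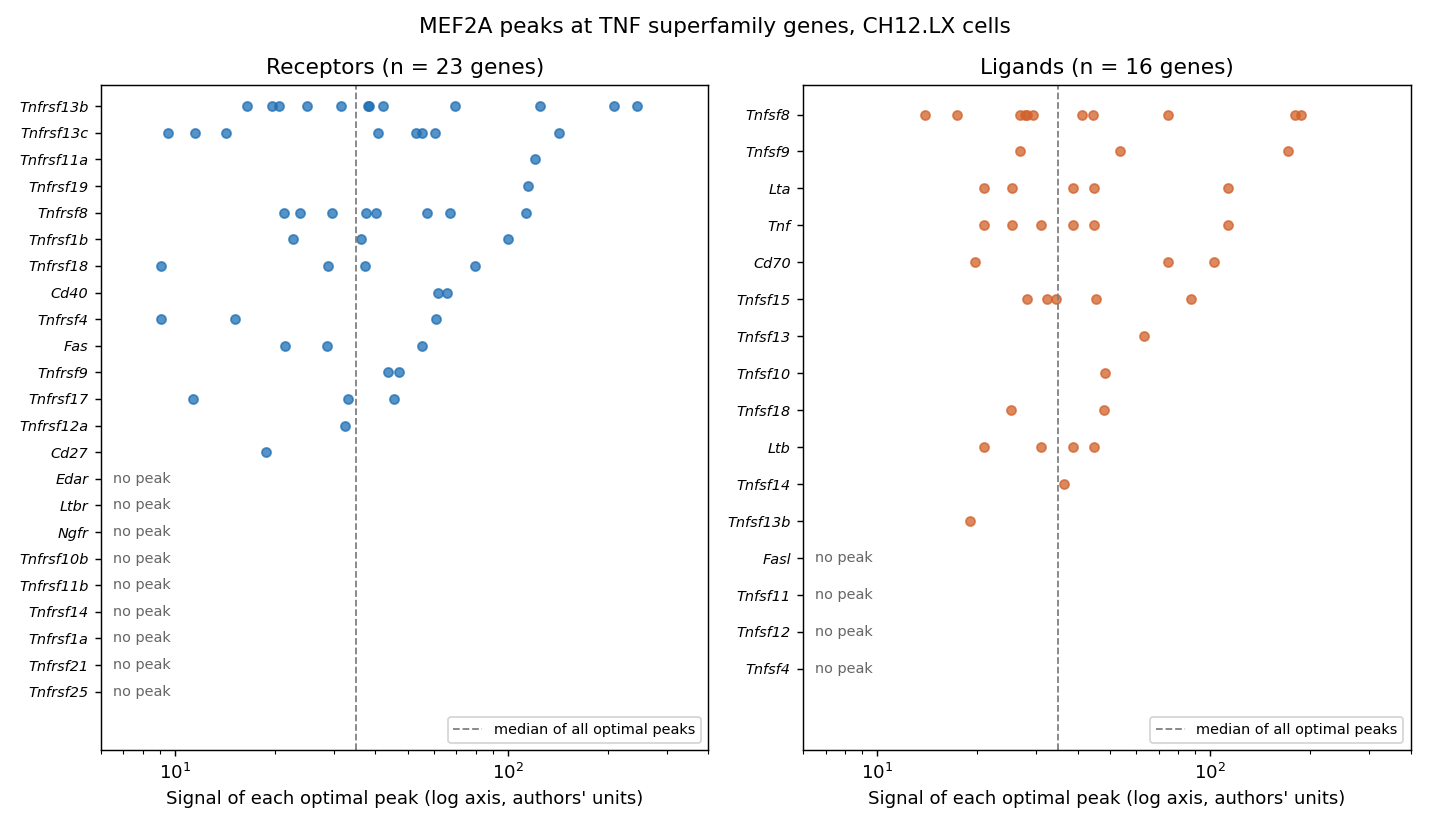
Signal of every optimal peak counted for a receptor gene (left) or a ligand gene (right), on a log axis in the authors' units, with genes ordered by their strongest peak. The dashed line is the median of all optimal peaks, 34.9; Tnfrsf13b reaches 244 and Tnfsf8 188, and 9 receptors and 4 ligands have no peak.

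A peak was counted for 26 of the 39 members (66.7%; Wilson interval at 95%, from 51 to 79.4), and for 50.1% of the 21443 other protein-coding genes. Those others still include 6 further family genes that are not among the 39, and 2 of these 6 had a peak. Receptors had a peak in 14 of 23 cases (60.9%, 40.8 to 77.8) and ligands in 12 of 16 (75%, 50.5 to 89.8). The difference, receptors minus ligands, was -14.1 percentage points with a Newcombe interval of -39.1 to 15.7, so these numbers of genes cannot show whether the groups differ. It was -1.09 points without replicate 2 and -4.08 points on mm9. All these intervals cover counting error over genes only, and neighbouring members that share a peak are not independent. With the gene body left out, 24 members had a peak within 10 kb of the TSS (12 receptors and 12 ligands, 61.5% of members), against 42.6% of other genes. On mm9, 21 members had a peak (53.8%; 12 receptors and 9 ligands), against 33.4% of other genes.

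Strong peaks and groups of peaks were counted for a larger share of members than of other genes. A peak in the strongest 10% of the set counted for 11 members (28.2%, 16.5 to 43.8), namely 6 receptors and 5 ligands, against 7.23% of other genes. At least 5 peaks counted for 7 members (17.9%, 8.98 to 32.7), 3 receptors and 4 ligands, against 6.11% of other genes. Overlapping intervals counted as separate peaks, for members and other genes alike, and Tnfsf15 reached 5 only with an interval that overlaps another. Within 1 kb of the TSS, 14 members had a peak (35.9%, 22.7 to 51.6), 7 receptors and 7 ligands, against 28.4% of other genes. Tnf and Lta count as 2 genes through shared peaks in these shares, including the 1 of rank 2056. Median gene length was 12761 bp for members and 17311 bp for other genes. These shares were described and not tested, as the genes were chosen with results of these data known.

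**Figure D3:**
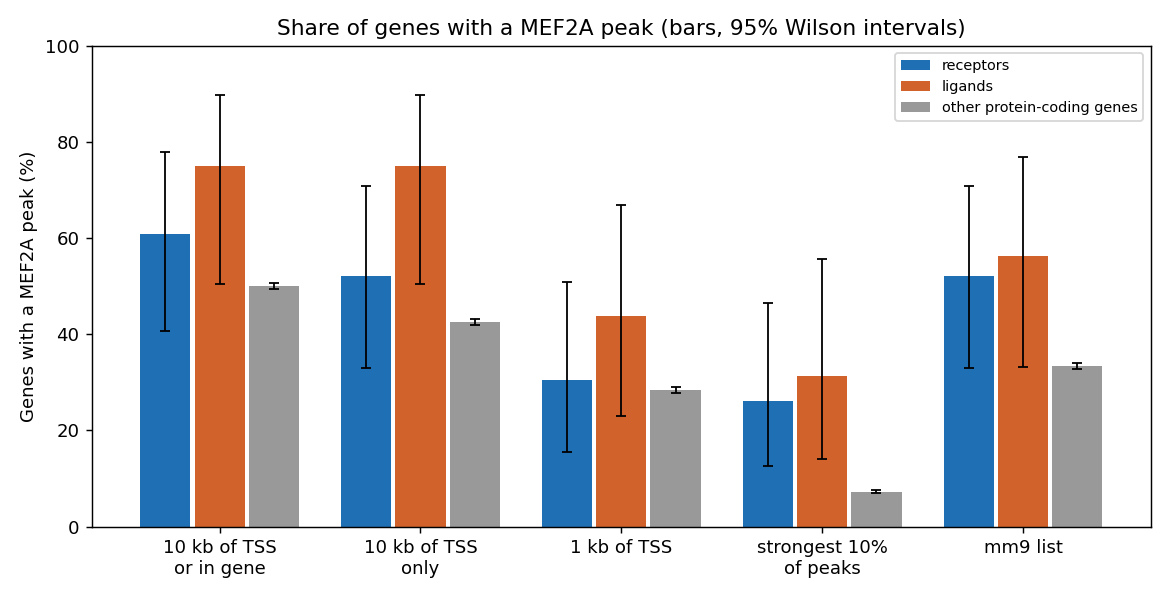
Percent of receptors (n = 23), ligands (n = 16) and other protein-coding genes with a MEF2A peak under 5 rules, with 95% Wilson intervals over genes as bars. For the strongest 10% of peaks, receptors stand at 26.1% and ligands at 31.3%, against 7.23% of other genes.

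The members' peaks were 85 distinct intervals, 51 at receptors and 34 at ligands, and 7 of them counted for more than 1 member. Once overlapping intervals were merged, the 85 made 79 separate stretches. Their median signal was 38.3 (38.3 at receptors and 37.6 at ligands), against 34.2 for peaks assigned to other genes. Among the 85, 22 were in the strongest 20% of the set (25.9%), against 18.0% of peaks assigned to other genes. In the strongest 10% were 13 of the 85, against 1964 of the 22732 peaks assigned to other genes. For 10 peaks the nearest TSS was that of a gene other than the members. Of the 52 pairs of a receptor gene and a peak, 17.3% lay within 1 kb of the TSS, 32.7% lay 1 to 10 kb upstream, 26.9% lay further inside the gene and 23.1% lay beyond the gene end. For the 43 ligand pairs these shares were 16.3%, 27.9%, 30.2% and 25.6% in the same order. Such shares were not counted for other genes.

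**Figure D4:**
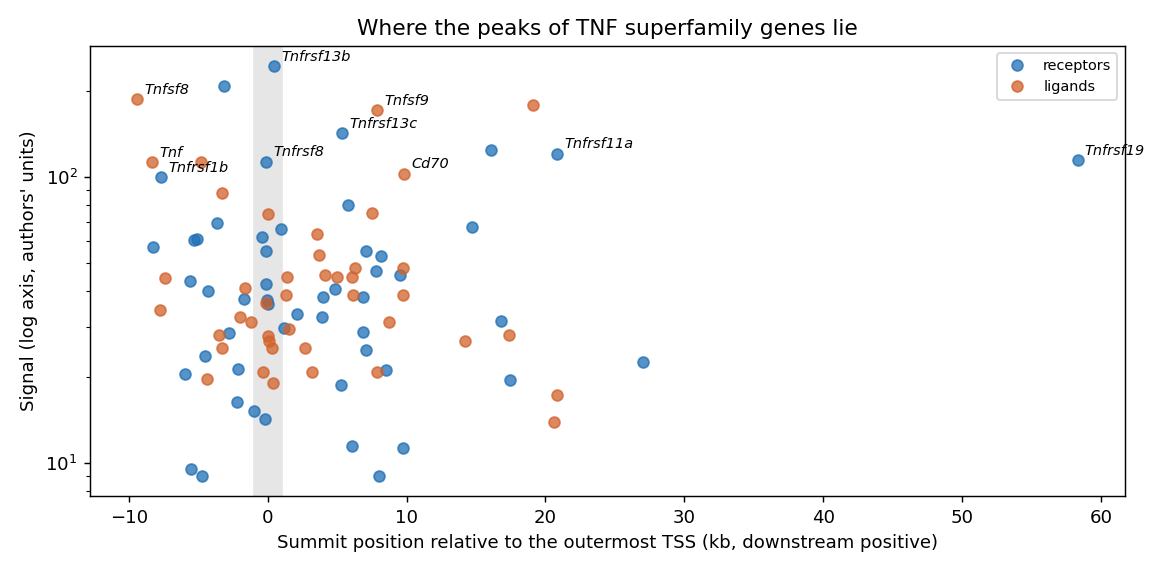
Signal (log axis, authors' units) against summit position relative to the outermost TSS in kb for every pair of a member gene and an optimal peak, receptors in blue and ligands in orange, so a shared peak appears once per gene. The grey band is 1 kb to either side of the TSS; of the peaks in the strongest 10%, 1 of the 3 at Tnfrsf13b and the 1 at Tnfrsf8 lie in it, and that of Tnfrsf19 lies 58320 bp downstream.

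The optimal set was made from both replicates, so high replicate ranks are partly built into its strong peaks. All 22 in the strongest 20% ranked within the first 31497 intervals of both relaxed replicate lists, and the 13 in the strongest 10% ranked 4560 or better in both; of the other optimal peaks in the strongest 20%, 99.8% ranked within the first 31497 of both. Of all 85, 67 ranked within the first 31497 of replicate 1 and 70 of replicate 2. In both lists this held for 59 peaks (69.4%), against 64.6% of the other optimal peaks, in replicate 1 alone for 8, in replicate 2 alone for 11 and in neither for 7. Of the 37 member peaks in the weaker 50% of the set, 15 ranked that high in both replicates (40.5%), against 35.8% of the other peaks in that range. Among these 15, the peaks of rank 25264 at Tnfrsf8, 24098 at Tnfrsf13b, 30647 at Tnfrsf13c, 30196 at Tnfrsf17 and 21258 at Tnfsf15 share their replicate intervals with a stronger neighbouring peak. Their matches are therefore not separate support, and how often this held for other peaks was not counted. Of all 85 member peaks, 38 of 51 at receptors and 21 of 34 at ligands ranked within the first 31497 of both replicates.

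**Figure D5:**
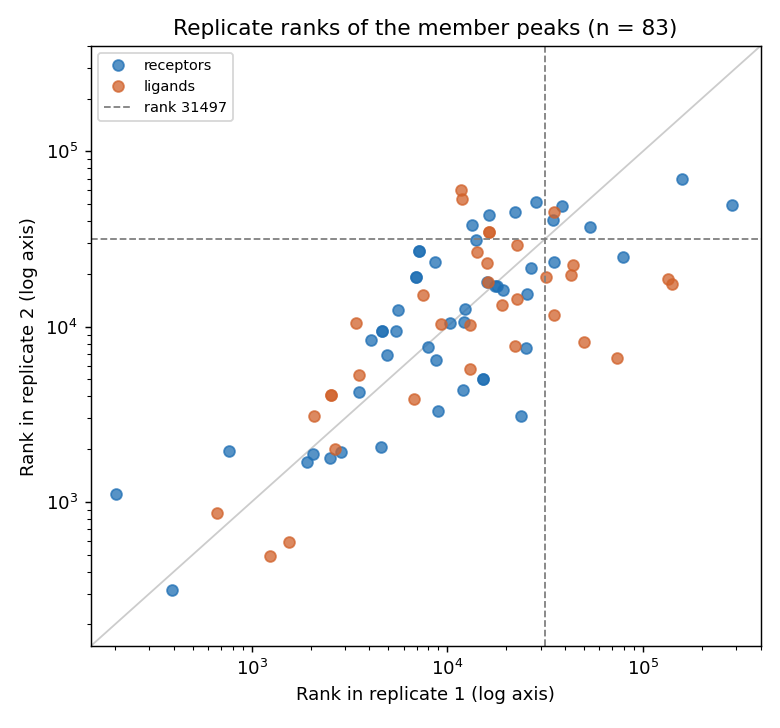
Rank in replicate 2 against rank in replicate 1, both on log axes, for the 83 member peaks with an overlapping interval in both relaxed lists, receptors in blue and ligands in orange. Dashed lines mark rank 31497; the strongest peaks lie near the diagonal, and 59 peaks lie within both lines.

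The MEF2 element was found at 1 member peak. Of the members' 48 distinct mm9 peaks, 1 held it within 50 bp of the summit (2.08%), the Tnfrsf13b promoter, against 7.13% of all 16839 mm9 peaks. Its symmetric form CTANNNNTAG, which leaves the middle bases free but fixes both ends, and so shares only some matches with the MEF2 element, was in 3 other windows (6.25%), against 5.89% of all peaks. The AP-1 element TGANTCA was in 8 windows (16.7%), against 12.2% of all peaks. An NF-kB element was in 7 (14.6%), against 7.0% of all peaks. The ETS-IRF composite GGAANNGAAA and the octamer ATTTGCAT were in 1 window each, against 4.39% and 3.12% of all peaks, and the RUNX element TGTGGTT (5.99% of all peaks) and the ETS element CCGGAAGT (1.61%) in none. Both strands were searched for exact matches, so weaker sites were not counted. In the RefSeq promoter sequences of GRCm38.p6, which run from 250 bases before to 50 after each start, 36 promoters of 32 members matched. Among these 36, the AP-1 element was in 7 (6.99% of all 21005 promoters hold it), at 6 distinct sites of 6 genes since 2 overlapping Tnfsf13b promoters share 1 site. The MEF2 element was in 3 (2.71% of all), an NF-kB element in 3 (4.86%), the RUNX element in 2 (4.72%) and the symmetric form in 1 (3.49%). No member promoter held the ETS element (5.21% of all), the ETS-IRF composite (2.55%) or the octamer (1.68%). The 3 with a MEF2 element were Tnfrsf13b, Tnfrsf17 and Tnfrsf4, and only at Tnfrsf13b was an optimal summit within 1 kb of it. The Tnfrsf4 match, TTAAAAATAA, lay 1005 bp from the nearest summit.

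Downstream of the receptors, 35 of 42 listed signalling genes and further family genes had a peak by the same rule, for which other protein-coding genes stood at 50.1%. On mm9 the count was 21 of 41, where other genes stood at 33.4%. All 8 genes for TRAF adaptors and TRAF-binding proteins had one, and all 5 NF-kB subunit genes. All 9 genes for inhibitor of apoptosis proteins, ubiquitin enzymes and proteins that act with them did too. So did 5 of 6 death domain pathway genes, 6 of 8 genes for kinases and their adaptor or regulatory partners, and 2 of 6 further family genes. Among those 8, Tab2 and Tab3, which encode partners of a kinase and not kinases, had none. Peaks in the strongest 10% lay at 7 of the 42, against 7.23% of other protein-coding genes. Rel, which encodes the NF-kB subunit c-Rel, had 9 peaks, the strongest of signal 170.3 and rank 883. Cflar, which encodes the caspase-8 inhibitor c-FLIP, had 6, the strongest of signal 169.9 and rank 887. Nfkb1, which encodes p105 and p50, had 12, the strongest of rank 1147. Tnfaip3, which encodes the NF-kB inhibitor A20, had its strongest 49 bp upstream of the TSS, with rank 1539. Relt (a TNF receptor family member, rank 2277), Traf1 (rank 2500) and Birc3 (rank 2603), which encodes the ubiquitin ligase cIAP2, completed the 7. Traf3, the adaptor that restrains the alternative path, had 1 peak of rank 3256, and Map3k14 had 8, the strongest of rank 6276.

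As a check of the labelled cell type, all 8 B cell marker genes had a peak, against 2 of 5 T cell and 3 of 6 myeloid markers, and 50.1% of other genes. The 2 T cell genes, Cd3d and Cd3g, share 1 peak. On mm9 the counts were 8 of 8 B cell, 1 of 5 T cell and 1 of 6 myeloid markers. Cd79b (rank 474), Cd22 (rank 441) and Ebf1 (rank 419) stood highest. No RNA was measured, so these are peaks near the genes and not their expression. Read depth of both libraries is unknown from peak lists, and a gene without a peak in them may still be bound below the threshold.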

How the data were processed

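The authors deposited peak lists of MEF2A ChIP-seq in 2 replicates of CH12.LX cells: a relaxed list per replicate and on pooled replicates, and optimal and conservative IDR sets, all on mm10, and a list on mm9. The authors thus made calls on each replicate and on both together. Per the labels and the deposited notes, a control was used for the mm10 lists, and none is named for the mm9 list; the control was not analysed here. Their aligner and peak caller were not given in the sources used here, and read depth is unknown. The signal value per peak is the authors' own. The score in the deposited q-value column only broke ties. The summit is the offset the authors deposited.

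Genes on mm10 were RefSeq GRCm38.p6 (1 outermost TSS each; strand from the RefSeq promoter table or GENCODE vM1; 414 of 21896 left out without a strand). Genes on mm9 were GENCODE vM1 with all protein-coding transcript starts, 22232 genes. Coordinates are 1-based and none were converted between builds. No peak ran past the end of an NCBIM37 chromosome. An optimal peak was matched to the best ranked replicate interval that overlapped it by 1 bp or more. Wilson and Newcombe intervals are at 95%. Motifs were exact consensus matches. The peak assignment and motif search were checked on planted peaks and elements. Tables were handled with pandas 2.3.3 and numpy 2.4.6 under Python 3.11.15, intervals with scipy 1.17.1 and figures with matplotlib 3.10.9.

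Every member is named. Full values are given for the strongest peak of the 12 members of highest rank, and of each member whose strongest peak is unshared and in the strongest 20%. Pathway genes are named when their peak is in the strongest 10%; Traf3, Map3k14 and the 3 B cell markers were added after their values were seen. Members and lists were chosen with earlier results of these data known.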

Additional observations from a re-analysis of the deposited data

How the results depend on the processing

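Counts of members with a peak kept within 1.5 times of the 26 reported in the conservative set, the mm9 list, the stronger 50% of peaks, the gene body left out, a 50 kb window, the nearest TSS alone and, chosen after seeing the data, all RefSeq starts, with a range from 21 to 33; the share of other genes ranged from 32.5% (stronger 50%) to 68.5% (50 kb window) over these settings, so the counts are to be read against it. Within 1 kb of the TSS the counts fell to 14 members, 7 receptors and 7 ligands, against 28.4% of other genes; that window is narrower by construction. Using 1 replicate alone gave 24 to 29 members, 13 to 17 receptors and 11 to 12 ligands, against 51.1% and 51.2% of other genes, with receptors minus ligands from -12.2 to -1.09 points. Without replicate 2, Tnfrsf14, Tnfrsf1a, Tnfrsf25 and Tnfsf11 gained a peak and Tnfsf13b lost its own. Without replicate 1, Cd27 and Tnfsf13b lost theirs. The difference between receptors and ligands was below 0 in every setting run, from -22.8 to -1.09 points. Requiring 50% overlap or summits within 100 bp left 46 and 45 of the 59 replicate matches. Pathway genes with a peak numbered 21 of 41 with the mm9 list, against 35 of 42; other genes stood at 33.4% on mm9, against 50.1%, and the cause was not tested. Windows with a MEF2 element numbered 2 within 100 bp of the summit, 2 in the whole interval and 3 with the symmetric form, against 1; the first 2 windows are wider by construction, and the symmetric form is another pattern that the Tnfrsf13b promoter match CTAATAATAA does not meet. No paired analysis was possible because the series has 1 group. With 23 receptors, 16 ligands and unknown read depth, small differences cannot be seen.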
